A study of Mus musculus with 2 samples.

Results

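CTCF summits at bidirectional coding promoters were chosen by position alone, from the annotation and without use of signal. A summit, the position of highest enrichment in a peak, was kept when transcription start sites (TSSs) of 2 different protein-coding genes on opposite strands lay within 1 kb of it, with the minus-strand TSS to the left of the plus-strand TSS. Such genes are transcribed away from each other from a shared promoter region and are called a divergent pair here. The rule found 858 summits, out of 73465 peaks in the deposited optimal list, 71756 of which lie on chromosomes 1 to 19. These 858 divergent-promoter summits fell at 708 gene pairs, which hold 1385 genes. Signal was the deposited enrichment value of each peak, the authors' own, which is used within the optimal list only.

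The series profiled CTCF by chromatin immunoprecipitation and sequencing in the whole gut tissue of newborn mice of strain B6NCrl, at day 0 after birth. It has 1 group of 2 biological replicates and no treatment, mutant or second tissue. Each replicate was powdered tissue pooled over several dissections, with sex not recorded, so signal from epithelium, muscle, nerve, vessel and blood cells was averaged and a weaker peak cannot be told apart from a peak in fewer cells. Replicate and pooled lists held 300000 peaks each, and the conservative list, a stricter selection for agreement between replicates, held 70556. Intervals on shares count summits of a single list and do not measure variation between animals, and since the lists carry no read counts, sequencing depth is unknown. No expression data were used, so transcription from both TSSs rests on the annotation.

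CTCF, a DNA-binding protein with many zinc fingers, recognises a long, partly degenerate motif and halts cohesin as it extrudes chromatin loops, with the direction of the motif setting which side of the site stops the loop. It also binds promoters, where it can bring distant enhancers close to a gene. Divergent promoters are common in mammalian genomes. They are typically rich in G, C and unmethylated CpG, often lack a TATA box, and frequently serve housekeeping genes of DNA repair, translation and mitochondria. CTCF itself is expressed in nearly all cell types, those of the intestine included.

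CTCF matches found under strong divergent-promoter summits are shown first, as examples of the motif at these promoters. The 19-base CTCF match is in capitals, read 5′ to 3′ on the strand named, with 10 bases of flank in lower case, and the coordinates (mm10) are those of the match. The first 9 are from the 10 strongest summits, in order of signal, and the last 2 span an annotated TSS, of Rps24 (ribosomal protein S24) and of Eif2s1 (translation initiation factor eIF2α).
Rab2b/Tox4 (chr14:52279464-52279482, plus strand): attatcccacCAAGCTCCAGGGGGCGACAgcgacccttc
Wrap53/Trp53 (chr11:69579487-69579505, plus strand): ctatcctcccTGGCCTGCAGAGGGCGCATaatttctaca
Nfkbil1/Atp6v1g2 (chr17:35236527-35236545, minus strand): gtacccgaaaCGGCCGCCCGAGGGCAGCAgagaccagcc
Gemin4/Dbil5 (chr11:76217704-76217722, minus strand): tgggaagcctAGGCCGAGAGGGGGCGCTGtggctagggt
Caskin2/Tsen54 (chr11:115814098-115814116, minus strand): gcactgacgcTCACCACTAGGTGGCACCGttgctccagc
Hnrnpdl/Enoph1 (chr5:100038998-100039016, minus strand): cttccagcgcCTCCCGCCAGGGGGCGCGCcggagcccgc
Trim46/Krtcap2 (chr3:89246364-89246382, plus strand): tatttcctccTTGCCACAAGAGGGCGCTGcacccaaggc
Ddias/Prcp (chr7:92874518-92874536, plus strand): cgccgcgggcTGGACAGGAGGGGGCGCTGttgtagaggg
Tctn3/Entpd1 (chr19:40612411-40612429, plus strand): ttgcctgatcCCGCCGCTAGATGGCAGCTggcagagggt
Polr3a/Rps24 (chr14:24487124-24487142, minus strand): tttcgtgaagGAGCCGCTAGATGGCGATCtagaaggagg
Atp6v1d/Eif2s1 (chr12:78861810-78861828, minus strand): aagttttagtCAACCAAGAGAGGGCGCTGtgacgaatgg
All 11 hold the letters GGC at the same place right of centre, while the outer positions vary. Of the 11 sites, the strongest summit, at Rab2b/Tox4, does not hold the strongest match.

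Read across a promoter, the match can lie in the minus-strand gene, between the TSSs or in the plus-strand gene. The next 3 stretches of mm10, printed on the plus strand with the CTCF match in capitals, run from 10 bases outside the first of these features to 10 bases outside the last and show each arrangement in turn.
Rab2b/Tox4 (chr14:52279454-52279575, plus strand): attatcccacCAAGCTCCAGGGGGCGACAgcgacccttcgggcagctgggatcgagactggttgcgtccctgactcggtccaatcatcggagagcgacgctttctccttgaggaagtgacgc
Nae1/Car7 (chr8:104534627-104534699, plus strand): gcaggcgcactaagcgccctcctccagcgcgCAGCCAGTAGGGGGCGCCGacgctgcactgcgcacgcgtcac
Tctn3/Entpd1 (chr19:40612223-40612439, plus strand): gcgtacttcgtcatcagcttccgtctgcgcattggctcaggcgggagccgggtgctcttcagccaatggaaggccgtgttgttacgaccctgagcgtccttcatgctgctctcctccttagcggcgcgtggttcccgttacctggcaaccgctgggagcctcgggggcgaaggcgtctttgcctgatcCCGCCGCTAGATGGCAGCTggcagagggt
In the Rab2b/Tox4 stretch of 122 bases the match takes bases 11 to 29, the Rab2b TSS is base 92 and the Tox4 TSS is base 112, so the match lies inside Rab2b. In the Nae1/Car7 stretch, under a summit with a signal of 546, the match takes bases 32 to 50, between the Nae1 TSS at base 11 and the Car7 TSS at base 63. In the Tctn3/Entpd1 stretch the TSSs are bases 11 and 144, and the match takes bases 189 to 207, inside Entpd1.

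Divergent-promoter summits were mostly of modest strength, with a small strong tail. Their signal had a median of 50.9, with quartiles of 28.1 and 122 and a range of 4.51 to 655, against a median of 75.9 over all autosomal peaks of the list. The strongest summit, at 655, lay 72 bases inside Rab2b, a small GTPase gene, in an untranslated exon. Its partner Tox4 encodes an HMG-box protein of a nuclear phosphatase complex. The rank of this summit was 78 in the list of replicate 1 and 46 in that of replicate 2, where rank 1 is the strongest peak. The third, at 593, lay 789 bases inside Wrap53, a gene for a telomerase cofactor, upstream of the tumour suppressor gene Trp53, with ranks of 132 in replicate 1 and 442 in replicate 2.

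The 7 after it had signals of 552 to 590. They lay at Nfkbil1/Atp6v1g2, Gemin4/Dbil5, Caskin2/Tsen54, Hnrnpdl/Enoph1, Trim46/Krtcap2, Ddias/Prcp and Tctn3/Entpd1. Gemin4 belongs to the SMN complex that assembles spliceosomal particles, Tsen54 to the tRNA splicing endonuclease, and Hnrnpdl is an RNA-binding protein. Krtcap2 is a subunit of the oligosaccharyltransferase, Prcp a lysosomal peptidase, Tctn3 a protein of the ciliary transition zone and Entpd1 the ectonucleotidase CD39. All 10 strongest summits ranked within the top 796 in both replicates, and all 10 had a CTCF match.

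The 5 weakest had signals of 4.51 to 4.77 and none had a match. They lay at Odf3l1/Cspg4, Chpf/Tmem198, Erh/Slc39a9, Fam192a/Rspry1 and Noc4l/Ddx51. The weakest, 165 bases inside the proteoglycan gene Cspg4, ranked 140513 in replicate 1 and had no peak in replicate 2. The Fam192a/Rspry1 summit had no peak in the list of either replicate. Noc4l/Ddx51, a pair of ribosome assembly genes, had a summit that ranked 47573 in replicate 2 and had no peak in replicate 1.

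**Figure D1:**
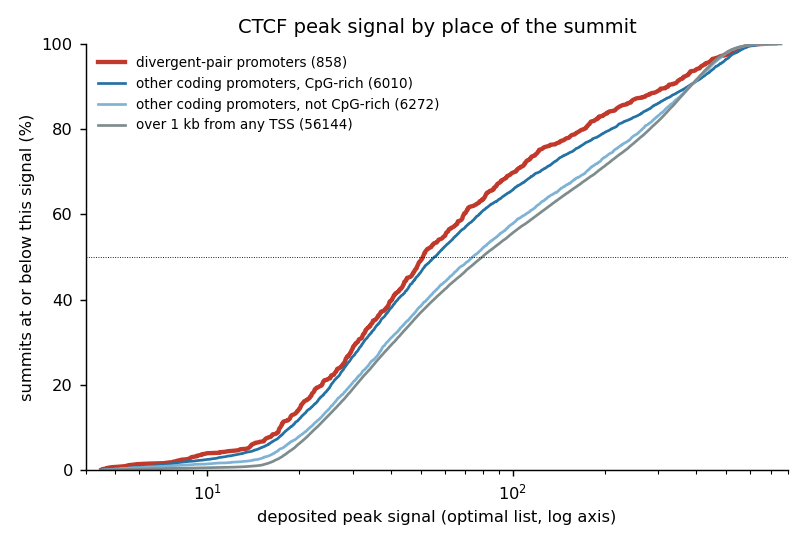
Cumulative share of summits (vertical axis, %) at or below each deposited signal (horizontal log axis) in the optimal list, for the divergent-promoter summits, other coding-promoter summits split by CpG content, and summits over 1 kb from any TSS. The divergent-promoter curve lies leftmost through most of its range and crosses 50% at a signal of 50.9, against 55.4 at CpG-rich other coding promoters and 79.5 at distal summits.

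Set against the rest of the list, divergent-promoter summits were less often strong. They exceeded the list's median signal in 37.8% of cases (324 of 858, Wilson 95% interval 34.6 to 41.1), against 51.2% of the 56144 distal summits, those more than 1 kb from any annotated TSS. The difference was -13.4 percentage points (Newcombe 95% interval -16.6 to -10.1). On every one of the 19 autosomes their median signal was below that of the distal summits. Against the 12282 other summits within 1 kb of a coding TSS, of which 45.1% were above the median, the difference was -7.34 points (-10.6 to -3.94). Their share in the strongest 10% of the list was 6.88%.

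The gap to other coding promoters was also read separately in CpG-rich windows and in the rest, and a change in its size was not tested. Among summits that were not CpG-rich, 42.9% of 212 at divergent promoters were above the median, against 49.4% at other coding promoters. That was -6.45 points, with an interval that included 0 (-13.0 to 0.389). Of the 646 CpG-rich divergent-promoter summits, 36.1% were above the median, against 40.6% of 6010 CpG-rich summits at other coding promoters, a difference of -4.58 points (-8.40 to -0.609). With only the strongest summit of each gene pair kept, that difference was 0.243 points (-4.10 to 4.71). This setting thinned the divergent-promoter summits by signal and kept every comparison summit, so it shifts signal differences upward by construction. Limited to the strongest peaks of a single replicate, without replicate 1 it was -3.76 (-7.62 to 0.240) and without replicate 2 it was -3.53 (-7.33 to 0.428). The share in the strongest 20% of the list was 11.3% of CpG-rich divergent-promoter summits and 15.6% of CpG-rich other promoter summits, a difference of -4.26 points (-6.66 to -1.44), and -1.60 points (-4.49 to 1.77) with only the strongest summit of each pair. When all 858 were set against the CpG-rich other promoter summits, the above-median difference was -2.89 points with an interval that included 0 (-6.30 to 0.629), and the median was lower on 11 of 19 chromosomes.

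Divergent-promoter summits were CpG-rich far more often than the list as a whole. Within 250 bases on either side of the summit, 75.3% (646 of 858, 72.3 to 78.1) had a GC content of at least 50% and an observed-to-expected CpG ratio of at least 0.6, against a background of 10.9% of all autosomal peaks. At other coding promoters the share was 48.9%, a difference of 26.4 points (23.2 to 29.3), and at distal summits it was 1.62%. With gene starts as the only TSSs, the difference from other coding promoters was 13.4 points (9.37 to 17.0). Windows of the same size at the midpoints of the annotated pairs were CpG-rich at 87.8% of the 690 pairs with a summit and at 74.9% of the 407 pairs with no summit within 2 kb, a difference of 12.9 points (8.12 to 17.8).

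A minority of divergent-promoter summits lay over a CTCF match. With a matrix learned on the other chromosomes, 32.3% (277 of 858, 29.2 to 35.5) had a match within 100 bases, where 71.6% of all autosomal peaks and 77.5% of distal summits had one. The difference from distal summits was -45.2 points (-48.3 to -42.0), and the share was lower on 19 of 19 chromosomes. In windows 1 kb to either side of the summits the share was 4.66%, close to the 5% that the threshold admits, and at the midpoints of pairs with no summit it was 3.93%. At a threshold that only 1% of flanking windows reach, 7.23% of divergent-promoter summits had a match, against 45.8% of distal summits.

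Against other coding promoters, where 47.7% of summits had a match, the difference was -15.5 points (-18.6 to -12.1). Its size differed between CpG-rich summits and the rest. Among CpG-rich summits the share with a match was 28.2% at divergent promoters and 34.0% at other coding promoters, a difference of -5.87 points (-9.41 to -2.09). It was -3.62 (-7.62 to 0.654) with only the strongest summit of each pair and -2.91 (-7.22 to 1.74) under a stricter definition of CpG-rich. The first of these kept every comparison summit, so it is not a like comparison. Among the summits that were not CpG-rich it was 44.8% at divergent promoters (95 of 212) and 60.9% at other coding promoters, a difference of -16.0 points (-22.7 to -9.21). All 858 against the CpG-rich other promoter summits gave -1.76 points with an interval that included 0 (-5.03 to 1.66). These groups also differed in where summits lay: the median distance to the nearest coding TSS of any transcript was 53.0 bases at CpG-rich divergent promoters and 126 bases at CpG-rich other promoters. By the rule, divergent-promoter summits have TSSs of at least 2 genes within 1 kb, which by itself favours a shorter distance. The part of that distance in the motif difference was not tested.

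The match share climbed steeply with signal. The matrices were learned from the strongest peaks of other chromosomes, so part of this rise may be built in. In 5 equal bins of the autosomal list by signal, weakest to strongest, 10.5%, 22.2%, 32.2%, 51.2% and 80.8% of divergent-promoter summits had a match. Distal summits had 57.2%, 68.7%, 77.3%, 87.2% and 95.2%, and the difference had an interval below 0 in every bin. Among CpG-rich summits compared within a bin, divergent promoters ranged from 9.33% to 76.7% and other coding promoters from 13.6% to 78.7%, and the interval of the difference included 0 in all 5 bins. Among summits that were not CpG-rich, divergent promoters were lower in the weakest bin, at 14.5% against 35.6% of other coding promoters (-21.1 points, -28.6 to -9.19), and in the middle bin, at 34.3% against 61.0% (-26.7 points, -40.4 to -9.95). In the other 3 bins of these summits the interval included 0. Median signal was 139 for the divergent-promoter summits with a match and 39.4 for those without.

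**Figure D2:**
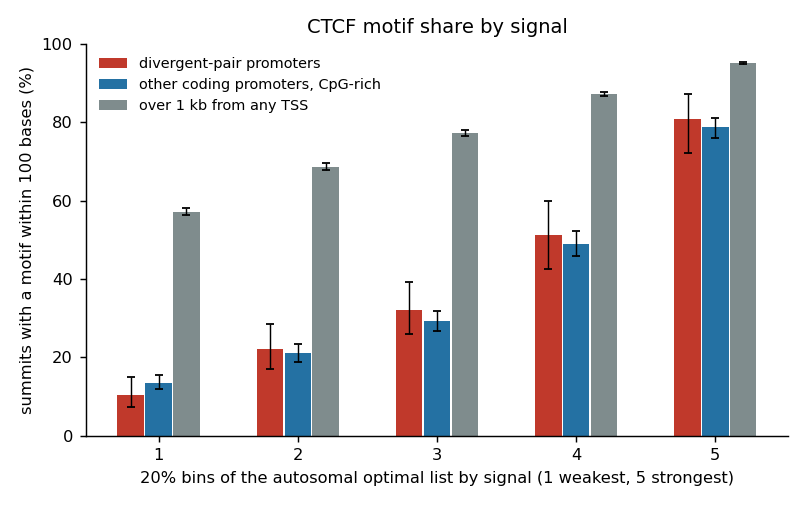
Share of summits with a CTCF match within 100 bases (vertical axis, %) in 5 equal bins of the autosomal optimal list by signal (horizontal axis, weakest to strongest), for divergent promoters, CpG-rich other coding promoters and summits over 1 kb from any TSS, with Wilson 95% intervals. Divergent promoters go from 10.5% in the weakest bin to 80.8% in the strongest and stay below distal summits throughout.

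Some strong divergent-promoter summits had no match. In the strongest 20% of the list 84 of 104 had one (80.8%), against a background of 93.5% of all autosomal peaks. The CpG-rich among the 104 had one in 56 of 73 cases (76.7%), against 78.7% of CpG-rich other coding promoter summits. Of the 20 divergent-promoter summits without one, 17 were CpG-rich. The best log-odds scores of these 20 ran from -1.11 to 8.74, with a median of 5.07, against thresholds of 9.31 and 9.33. The strongest was at Cdiptos/Cdipt with a signal of 528, 122 bases inside Cdipt, the gene of phosphatidylinositol synthase, and ranks of 1110 and 843 in replicates 1 and 2. Its best score was -0.37. The summit at B3galt6/Sdf4, with a signal of 493, had a best score of -1.11. B3galt6 encodes a galactosyltransferase of proteoglycan synthesis. This pair was singled out after its values were seen.

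Most summits lay in either gene of the pair and not in the gap between the TSSs. Of the 858, 350 (40.8%) lay on the minus-strand gene's side, 369 (43.0%) on the plus-strand gene's side and 139 between the TSSs (16.2%, 13.9 to 18.8). The gap is short, with a median of 103.5 bases between TSSs and quartiles of 61.00 and 195.5, and it made up on average 12.0% of the positions that the 1 kb rule allows. The median summit lay 172 bases downstream of the nearest TSS of its pair, and 34.4% of summits lay within 100 bases of that TSS and 79.7% within 500. By annotated feature, 46.6% lay in untranslated exons, 28.2% in introns, 14.9% in coding exons and 10.3% between genes.

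**Figure D3:**
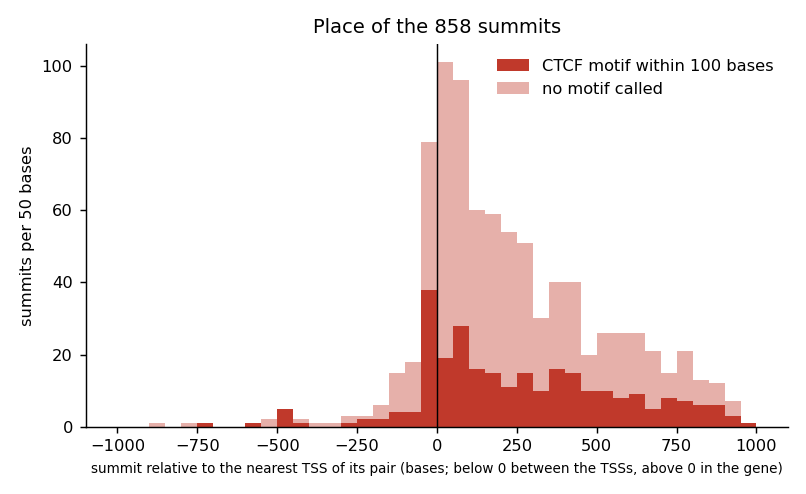
Number of divergent-promoter summits per 50 bases (vertical axis) by distance from the nearest TSS of the pair (horizontal axis, bases, below 0 between the TSSs and above 0 downstream in the gene), with and without a CTCF match. The counts peak beside the TSS and tail off over 1 kb into the gene, and 139 summits lie between the TSSs.

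Summits downstream of the TSSs less often had a match, at 30.3% (218 of 719), than those between them, at 42.4% (59 of 139). Downstream minus between was -12.1 points (-21.0 to -3.50). This difference was not kept in every setting: without replicate 1 it was -7.67 (-16.6 to 0.823), and with TSSs of protein-coding transcripts only it was -7.47 (-16.6 to 1.10). Median signal was 49.10 downstream and 61.60 between the TSSs.

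Matches showed no clear orientation to the promoter. The match pointed along the plus strand at 53.4% of 277 summits (47.5 to 59.2). It lay on the same strand as the nearer gene at 44.8% (39.0 to 50.7). The match centre was a median of 10 bases from the summit, while its nearest TSS was a median of 203 bases upstream.

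Spacing between the TSSs ranged widely among the pairs. The tightest pairs, with TSSs 1 to 3 bases apart, were Slc7a6os/Prmt7, Arfrp1/Zgpat, Map4k5/Atl1, Irak3/Tmbim4 and Tpgs2/AW554918, with signals of 28.0, 23.7, 413, 422 and 180. Prmt7 is an arginine methyltransferase, Map4k5 a kinase, Atl1 a GTPase that shapes the endoplasmic reticulum and Irak3 an inhibitor of Toll-like receptor signalling. These distances are between the closest TSSs of the pair within 1 kb of the summit, so a pair with several annotated TSSs can have another distance at another summit. The widest, at 1365 to 1786 bases, were at summits of Pdzd7/Sfxn3, Tmem69/Gpbp1l1, Atp5f1/Wdr77, Ankrd37/Lrp2bp and Olfml3/Gm10964, with signals of 59.2, 33.0, 133, 139 and 419. Atp5f1/Wdr77 had a second summit, with a signal of 16.8, where the TSSs in reach were 93 bases apart. All 5 of the widest had the summit between the TSSs, which the rule requires of any pair more than 1 kb apart. At the edge of the rule, the farther TSS lay 1000, 999 and 998 bases from the summits of Dbf4/Slc25a40, Slc5a6/Atraid and Brca1/Nbr1, with signals of 36.1, 226 and 87.2. Just outside, at 1005, 1007 and 1008 bases, were summits of Trip12/Fbxo36, Atp6v1a/Naa50 and Map4k5/Atl1, with signals of 84.1, 240 and 93.0.

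Most pairs had a single summit. Of the 708 pairs, 554 had 1 summit, 154 had 2 or more and 28 had 3 or more. Neighbouring summits of a pair lay a median of 579 bases apart. The 3 pairs with 4 summits were Lcmt2/Adal, Usp5/Cdca3 and Slc16a6/Arsg. At Lcmt2/Adal, genes of a tRNA-modifying methyltransferase and an adenosine deaminase-like enzyme, the 4 signals were only 5.40 to 17.1. At Usp5/Cdca3, genes of a deubiquitinase and a cell division protein, they were 7.70 to 77.9, and at Slc16a6/Arsg, genes of a transporter and a sulfatase, 13.9 to 26.5. Only 1 of these 12 summits had a match, at Usp5/Cdca3.

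The rule can also be read from the side of the annotation. GENCODE M21 holds 1201 divergent pairs of autosomal coding genes with TSSs at most 1 kb apart, and 690 of them had a divergent-promoter summit (57.5%, 54.6 to 60.2). The share was 59.3% for pairs 1 to 100 bases apart, 60.0% for those up to 200, 56.3% for those up to 500 and 40.8% (31.6 to 50.7) for those up to 1000. By the rule, wide pairs leave fewer positions within 1 kb of both TSSs.

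Genes of such pairs had a CTCF summit within 1 kb of a TSS more often than other genes. It was so for 67.1% of 2350 pair genes and 44.1% of the other 18457 autosomal coding genes, a difference of 22.9 points (20.9 to 24.9), over a background of 46.7% of all genes. Both genes of a pair can count the same summit, so they are not independent. The difference was small where the gene start was CpG-rich, at 68.7% of pair genes and 65.6% of other genes, 3.12 points (0.756 to 5.42). Where the gene start was not CpG-rich the shares were 60.6% and 26.7%, 33.9 points (29.3 to 38.3). CpG content was read at the gene start, while a gene could be in a pair or have a summit through any annotated TSS. Pair genes and other genes may thus differ in the number and CpG content of their other TSSs, which was not tested.

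Genes of several housekeeping lists were members of divergent pairs, and each list is given by how many of its pair genes had a summit. Of all 20807 autosomal coding genes, 11.3% were in annotated divergent pairs. Of these pair genes 57.4% had a divergent-promoter summit, and 6.66% of all genes did. All 10 aminoacyl-tRNA synthetase genes in such pairs had one, among them mitochondrial Sars2 at 445, the head-to-head pair Hars and Hars2 at 128, Fars2 at 115, Yars at 109, Rars2 at 81.9 and lysyl-tRNA synthetase gene Kars at 14.3. Of 10 translation initiation factor genes in pairs, 9 had one. The strongest was at Atp6v1d/Eif2s1 with a signal of 428 and ranks of 4075 and 5014 in replicates 1 and 2, followed by Eif2b4/Snx17 at 323 and Txndc9/Eif5b at 244. These lists are short and were written with earlier results of these data known.

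**Figure D4:**
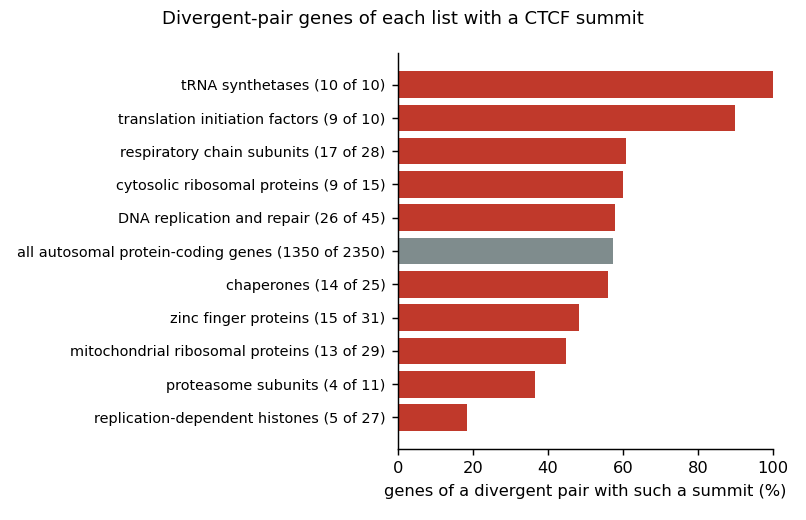
Share of the genes of annotated divergent pairs that had a divergent-promoter summit (horizontal axis, %), by gene list with at least 10 such genes, and over all autosomal coding genes (grey). Bars run from 10 of 10 tRNA synthetase genes to 5 of 27 replication-dependent histone genes, with all genes at 57.4%.

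DNA replication and repair genes were often in pairs, 45 of 110 (40.9%), against 11.3% of all autosomal coding genes. Of the 45, 26 had a summit (57.8%), close to the 57.4% of all pair genes. Strong ones beside Trp53 included Tkfc/Ddb1 at 304 and Mcm9/Asf1a at 291. Ddb1 is a subunit of a ubiquitin ligase of repair, and Mcm9 is a helicase. Chek2, a checkpoint kinase gene, had summits of 188 and 179 with its partner Hscb. Weak ones included Rpa3/Umad1 at 17.8 and Xrcc3/Zfyve21 at 15.4.

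Mitochondrial genes came from 2 of the lists. Of 28 respiratory chain genes in pairs 17 had a summit (60.7%), led by the ATP synthase subunit gene Atp5d at 318 with its partner Cbarp. Sdhd/Timm8b had 113 and Sdha/Ccdc127 51.8, both Sdh genes encoding subunits of succinate dehydrogenase. Of 29 mitochondrial ribosomal protein genes in pairs 13 had one (44.8%), with Mrps12/Sars2 at 445 and Mrps18b/Ppp1r10 at 305 far above the rest. The third, Mrpl48/Rab6a, had 124.

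Cytosolic ribosomal protein genes had a summit in 9 of 15 cases (60.0%), the strongest at Polr3a/Rps24 with a signal of 452 and ranks of 3369 and 3332 in replicates 1 and 2. Polr3a encodes the largest subunit of RNA polymerase III, and this summit lies 3 bases from a TSS, in the gap. Chaperone genes had one in 14 of 25 (56.0%), the strongest at Pradc1/Cct7 at 316, Cct7 being a subunit of the chaperonin that folds actin and tubulin. Zinc finger protein genes had one in 15 of 31 (48.4%), the strongest at Zfp319/Usb1 at 211. Proteasome genes had one in 4 of 11, with the strongest at Ftsj3/Psmc5.

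Replication-dependent histone genes, which lie in clusters with many divergent pairs, had a divergent-promoter summit in 5 of 27 cases (18.5%). The strongest, at 111, was with a gene outside the histone family, at Bola1/Hist2h2ab. Against 11.3% of all autosomal coding genes, none of the 39 Hox genes on the list was in a divergent coding pair. Of 53 intestinal epithelial genes 1 was, Mttp, which loads lipid onto apolipoprotein B in enterocytes. Its pair with the tRNA methyltransferase gene Trmt10a had summits of 153 and 63.7, and the stronger ranked 24449 and 24382 in replicates 1 and 2. Of 5 collagen and laminin genes in pairs 3 had one, with G0s2/Lamb3 at 230.

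Of 17 textbook divergent pairs, 16 were divergent in the annotation and 10 had a summit. Over all 1201 annotated pairs the share with a summit was 57.5% (54.6 to 60.2). With so few textbook pairs, the count is not a result about them as a set. The strongest were Wrap53/Trp53 at 593 and Mrps12/Sars2 at 445, both with a match. Pairs of intermediate signal were Serpini1 with Pdcd10 at 93.8, Brca1 with Nbr1 at 87.2 and Atm with Npat at 80.8. Brca1 and Atm are DNA damage response genes. The mitochondrial chaperonin genes Hspd1 and Hspe1 had 30.6, the basement membrane collagen genes Col4a1 and Col4a2 27.6, Hnrnpa2b1 with Cbx3 25.3, and Mcm4 with Prkdc 21.7. The pairs Col4a3 with Col4a4, Ppat with Paics, Sirt3 with Psmd13, Surf1 with Surf2, Tbp with Psmb1 and Tap1 with Psmb9 had none in the optimal list.

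Short promoter elements were read within 100 bases on either side of each summit, on both strands. The letters GGGCGG of SP and KLF factors were present at 41.4% of divergent-promoter summits, against 5.01% of distal summits, and CCGGAAG of ETS factors at 11.3% against 1.15%. TATAAA of the TATA box was present at 2.91% against 9.61%. Among CpG-rich summits, TATAAA was at 1.39% of divergent and 1.51% of other coding promoters, with an interval that included 0 (-0.121 points, -0.863 to 1.14). Windows of the same size at all 90262 annotated coding TSSs held GGGCGG at 32.8%, CCGGAAG at 8.18%, TATAAA at 6.92%, CCAAT at 23.7%, TGACGT at 5.61%, ACTACAA at 2.02% and AGATGGC at 5.25%. Among CpG-rich summits, GGGCGG was at 49.4% of divergent and 55.6% of other coding promoters (-6.21 points, -10.2 to -2.16), CCGGAAG was at 13.9% and 9.08% (4.85 points, 2.28 to 7.82), and ACTACAA of ZNF143 was at 2.79% and 1.43% (1.36 points, 0.286 to 2.95). Within 50 bases on either side none of these 3 intervals excluded 0, while that of TGACGT of CREB and ATF factors did, at 3.87% and 2.48% (1.39 points, 0.0847 to 3.21), against 1.53 points (-0.297 to 3.82) within 100 bases. CCAAT of NF-Y was at 18.4% and 15.9%, with an interval that included 0 (-0.424 to 5.83). These windows were centred on summits, whose median distance to the nearest coding TSS was 53.0 bases at CpG-rich divergent promoters and 126 at CpG-rich other promoters. The part of that placement in the element differences was not tested.

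At the promoter midpoint, where windows are placed alike, no difference in these elements between pairs with and without a summit was detectable. GGGCGG was at 57.1% of midpoints of pairs with a summit and 53.6% of those with none within 2 kb, CCGGAAG at 24.6% and 22.6%, CCAAT at 32.8% and 33.9%, and TGACGT of CREB and ATF factors at 11.9% and 12.8%. The interval of the difference included 0 for all 10 elements searched, and its bounds were -2.53 to 9.61 points for GGGCGG, the widest of them. Of the other elements, AGATGGC of YY1 was at 3.96% of divergent-promoter summits without a CTCF match and 10.1% of those with one (-6.15 points, -10.5 to -2.57). These letters resemble part of the CTCF match itself.

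Both replicates ranked the divergent-promoter summits much alike, though less so than all autosomal peaks. The optimal list was itself selected for agreement between replicates, so a high correlation of ranks is partly built in. A peak lay under the summit in both replicate lists for 804 of 858, and over these Spearman's rho between the ranks was 0.900, given as a description. Over all 70521 autosomal peaks found in both it was 0.957. The median rank was 42589 in replicate 1 and 44105 in replicate 2. In the list of replicate 1, 27 had no peak, and in that of replicate 2, 31. Among the strongest 73465 peaks, the length of the optimal list, were 727 in replicate 1 and 702 in replicate 2, with 645 in both. The conservative list held 77.6% of the 858 (74.7 to 80.3), against 88.0% of distal summits and a background of 87.0%. Among CpG-rich summits it held 78.0% at divergent promoters and 80.0% at other coding promoters. That difference was -1.93 points, with an interval that spanned both signs (-5.43 to 1.26). Among summits that were not CpG-rich it held 76.4% and 85.6%, a difference of -9.16 points (-15.4 to -3.87). The divergent-promoter summits left out of the conservative list, 192 in number, had signals of 4.51 to 59.40, with a median of 20.30.

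**Figure D5:**
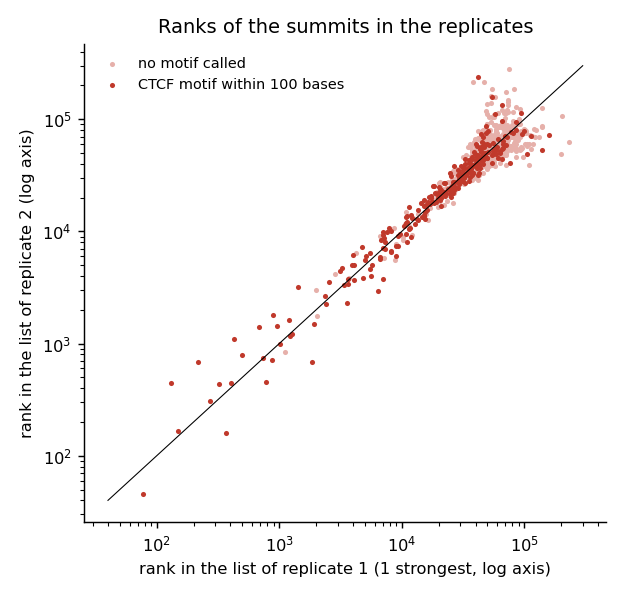
Rank of each divergent-promoter summit in the peak list of replicate 1 (horizontal log axis) and replicate 2 (vertical log axis), 1 being the strongest, for the 804 found in both, with and without a CTCF match. Points follow the diagonal and spread most among the weakest ranks, where few have a match, with rho of 0.900.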

How the data were processed

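CTCF was measured in 2 biological replicates of newborn mouse intestine. Per the deposited README files the authors supplied narrowPeak lists on mm10 for each replicate, for both replicates pooled, and 2 lists thresholded for agreement between replicates (optimal and conservative). The aligner, the peak caller and the threshold were not given in the sources used here. Deposited signal is the authors' enrichment value per peak, in the optimal list for the main results and by rank between lists. Gene models were GENCODE M21, and sequence came from the RefSeq copy of GRCm38 (mm10).

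The pair with the shortest TSS distance described each summit. The 19-base matrices were learned from the 5000 strongest autosomal peaks of the odd or the even chromosomes (6 rounds, pseudocount 1), and each scored only chromosomes outside its training set. A match had to reach the score of 5% of windows 1 kb from the training peaks, within 100 bases of the summit. Shares have Wilson 95% intervals and differences Newcombe 95% intervals, with no p-values. Code for the rule, the matrix and the intervals was tested on simulated data. Python 3.11.15, NumPy 2.4.6, SciPy 1.17.1, Matplotlib 3.10.9, pandas 2.3.3 and samtools 1.23.1 were used.

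The summits, gene lists and pairs were chosen with earlier results of these data known. Named pairs were the 10 strongest and 5 weakest summits, the 5 shortest and 5 longest TSS distances, the pairs with the most summits, 3 on each side of the 1 kb limit, the strongest without a match, the strongest of each list and every textbook pair, some of which are not reported here, and further members of the lists were named after their values were seen. Comparisons within CpG-rich or CpG-poor windows, of genes split by CpG content and between pair midpoints were added after the data were seen. Alternatives were the conservative list, each replicate alone, other TSS windows and annotations, the strongest summit per pair, peaks above the median, other motif settings and other CpG definitions.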

Additional observations from a re-analysis of the deposited data

Results flagged for a closer look

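The pooled peak list, which the comparisons above do not use, had a summit within 1 kb of the midpoint at 446 of the 511 annotated divergent pairs that had no divergent-promoter summit in the optimal list (87.3%, 84.1 to 89.9). It is listed because it is signal in data outside the main measurement, and the share is close to that at CpG-rich single gene starts given below, so it is not a result about divergent pairs. At the strongest such pooled summit of each pair a CTCF match was present in 49 of 446 cases (11.0%, 8.41 to 14.2), against 32.3% of the 858 divergent-promoter summits and 4.66% of windows 1 kb beside them. The pooled list holds 300000 peaks and was not thresholded for agreement between replicates. Measured the same way at single gene starts outside divergent pairs that had no optimal summit, a pooled summit lay within 1 kb at 86.7% of the 2848 CpG-rich starts (85.4 to 87.9) and at 43.2% of all 10311 starts.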

How the results depend on the processing

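Leaving out a replicate meant using as many of the other's strongest peaks as the optimal list holds. No paired analysis was possible because the series has 1 group and no groups were compared. With replicate 1 or replicate 2 left out there were 857 to 868 summits, 58.4% to 59.0% of pairs had one, 16.2% in both lay between the TSSs, 32.0% to 33.1% had a match, 37.7% to 38.3% were above the median and 74.4% to 75.2% were CpG-rich. A 500-base window gave 569 summits, at 43.9% of pairs, 19.3% between the TSSs, 29.0% with a match and 87.9% CpG-rich. A 2 kb window gave 66.4% of pairs, 39.5% with a match and 60.4% CpG-rich. Gene starts alone gave 512 summits, 34.2% of them above the median. Peaks above the median signal gave 324 summits, at 24.8% of pairs, 20.1% between the TSSs, 55.6% with a match and 71.9% CpG-rich, and no above-median share. The conservative list gave 53.5% of pairs, the strongest summit per pair 43.8% above the median, the 1% threshold a match share of 7.23% and the stricter CpG definition a CpG-rich share of 50.9%. The lower counts under narrower windows and shorter lists follow from their construction, as does the higher above-median share with the strongest summit per pair.

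The differences from distal summits in match share and signal, and from other promoters in CpG-rich share, kept their sign and excluded 0 in every setting run. The size of the CpG-rich difference depended on the TSSs used. It was 26.4 points in the main setting, 19.3 (16.1 to 22.3) with protein-coding transcripts and 13.4 (9.37 to 17.0) with gene starts. Differences from CpG-rich other promoters were not stable, and the cause was not tested. The setting with the strongest summit per pair thinned divergent-promoter summits by signal but kept every comparison summit. Its values are therefore not a like comparison. For all 858, the match difference was -4.88 points with a 500-base window, 4.79 with 2 kb, 1.25 with the strongest summit per pair and 0.546 under the stricter CpG definition, and the above-median difference was -4.46 with protein-coding transcripts, -6.45 with gene starts and 3.17 with the strongest summit per pair. For CpG-rich summits, the match difference was -3.62 and -2.91 with the strongest summit per pair and the stricter definition, the above-median difference 0.243 and -2.43, and the difference in the strongest 20% -1.60 and -1.58. The above-median difference of CpG-rich summits was also -3.30 with 500 bases, -3.50 with 2 kb and -3.76 to -3.53 with a replicate left out. Downstream minus between in match share was -5.59 with 2 kb, -7.47 with protein-coding transcripts and -9.18 to -7.67 with a replicate left out. Within 50 bases on either side of the summit, differences from CpG-rich other promoters turned sign for GCATGCG (-0.117), AGATGGC (-0.142), TATAAA (0.346), CACGTG (0.367) and CTCGCGA (-0.248), none of whose intervals excluded 0 in either window. Read depth is unknown, so no limit of detection can be given.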
